A study of Mus musculus with 18 samples.

Results

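The Ms4a genes of mouse macrophages were described in 18 RNA sequencing libraries. The members are the genes with the symbols Ms4a4a, Ms4a4c, Ms4a4d, Ms4a6b, Ms4a6c, Ms4a6d and Ms4a7, which were chosen by symbol among the 23052 gene rows of each count table. Of these 7 members, 6 were analysed, and Ms4a4a was not analysed here. The cells were bone marrow-derived macrophages of wild-type C57BL6/J mice, differentiated over 7 days in a mix of 20% L929-conditioned medium and 80% serum-containing DMEM. In the tolerant set, endotoxin-tolerant macrophages were kept without glutamine but with alpha-ketoglutarate (AKG), without glutamine, or with glutamine, in 4 libraries each. In the stimulation set, macrophages were given IL-4 for 6 h, LPS for 6 h, or served as controls, in 2 libraries each. All 3 tolerant groups share the tolerance treatment, whose dose and time the labels do not state, and no library of the tolerant set is from naive cells. The study's stated aim was to find which transcripts glutamine metabolism affects in tolerant macrophages. The labels do not say whether replicates came from separate mice or cultures, so p-values measure only the spread between these libraries, which may be technical.

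Ms4a genes encode small tetraspan proteins of the plasma membrane and endosomes that sit beside immune receptors and tune their signalling and trafficking. The best known relatives are Ms4a1, which encodes the B cell antigen CD20, and Ms4a2, which encodes the beta chain of the high-affinity IgE receptor of mast cells. Macrophages and monocytes use another branch of the family, which in the mouse has been multiplied into several close Ms4a4 and Ms4a6 copies. The Ms4a4a protein is known from mouse macrophages as a partner of the beta-glucan receptor Dectin-1, and the human MS4A4A and MS4A6A locus is known from genetic studies of Alzheimer's disease and of soluble TREM2.

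The 7 members lie in the Ms4a cluster of chromosome 19, within 283.8 kb (GRCm38, GENCODE vM21 annotation). From one end, they are Ms4a7 (chr19:11321039-11336146, minus strand), Ms4a4a (chr19:11375523-11392790, plus strand), Ms4a4c (chr19:11404770-11427246, plus strand), Ms4a6c (chr19:11469366-11482192, plus strand), Ms4a6b (chr19:11516512-11531256, plus strand), Ms4a4d (chr19:11536801-11558467, plus strand) and Ms4a6d (chr19:11586604-11604849, minus strand). The whole cluster spans 0.679 Mb with 35 annotated genes, 19 of them named Ms4a. The copies are close in sequence. Over 1192 aligned bases of their longest coding transcripts, Ms4a6b and Ms4a6c were 89.4% identical, and over 908 bases Ms4a6b and Ms4a6d were 86.6% identical. Ms4a4c was 84.1% identical to Ms4a4d over 1124 bases and 91.4% identical to Ms4a4b over 1648 bases.

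That likeness bears on how surely reads can be given to one copy. The share of 50-base stretches found in the transcripts of another gene was 0% for Ms4a7, 0.546% for Ms4a4d, 2.92% for Ms4a6d, 5.89% for Ms4a6b and 8.48% for Ms4a4c. For Ms4a6c it was 56.9%, mostly from BE692007, a transcript on the other strand that covers 53.1% of the exon bases of Ms4a6c. The libraries were stranded per the labels' protocols, but no label or header states the strand setting of the counting step, so Ms4a6c counts are less certain than those of the other members.

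The promoters show which copies share their start regions, and the stretches with the shared bases are printed here because they show how little the copies differ there. RefSeq promoter windows (GRCm38.p6, 250 bases before to 50 bases after the start) were found for 6 of the 7 members, all but Ms4a6d. The starts used here are those of RefSeq and can differ from the ends of the GENCODE gene spans. The stretches printed for Ms4a4c, Ms4a6b and Gm8369 lie wholly inside those spans (chr19:11485938-11512577 for Gm8369). In Ms4a4c, in its neighbour Ms4a4b and in the neighbouring gene Gm8369 the windows were near copies, with 89.0% identity over 182 bases between Ms4a4c and Ms4a4b and 87.5% over 176 bases between Ms4a4c and Gm8369. The last 100 bases before each start follow, 5′ to 3′ on the plus strand, at chr19:11407561-11407660, chr19:11443458-11443557 and chr19:11491938-11492037. Capitals mark matches to GAGGAA, a core that PU.1 is known to bind, and to GGG, any 5 bases and CC, a loose core of NF-kappaB sites.
Ms4a4c: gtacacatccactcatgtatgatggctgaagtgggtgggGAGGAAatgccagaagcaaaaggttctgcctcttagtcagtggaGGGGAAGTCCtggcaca
Ms4a4b: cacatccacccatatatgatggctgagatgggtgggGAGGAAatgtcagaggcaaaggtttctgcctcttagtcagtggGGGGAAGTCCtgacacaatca
Gm8369: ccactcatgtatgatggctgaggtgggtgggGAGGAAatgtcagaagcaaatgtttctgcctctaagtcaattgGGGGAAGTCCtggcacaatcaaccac

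Ms4a6b and Ms4a6c share another stretch near their starts, with 85.4% identity over 213 bases. The stretch is offset, from 248 to 29 bases before the start of Ms4a6b and from 175 before to 39 after that of Ms4a6c. Their longest common run of 48 bases is printed below in capitals, from chr19:11518396-11518518 for Ms4a6b and chr19:11469274-11469367 for Ms4a6c, both on the plus strand.
Ms4a6b: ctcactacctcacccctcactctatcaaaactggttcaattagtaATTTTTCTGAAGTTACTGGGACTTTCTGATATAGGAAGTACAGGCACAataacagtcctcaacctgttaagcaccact
Ms4a6c: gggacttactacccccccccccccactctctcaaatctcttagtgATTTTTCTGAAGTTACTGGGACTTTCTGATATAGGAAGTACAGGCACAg
The window of Ms4a7 resembled neither group. It held TTC, any 4 bases and GAA, the spacing that STAT6 is known to prefer, in capitals in the last 100 bases before its start (chr19:11336147-11336246, printed on the minus strand).
Ms4a7: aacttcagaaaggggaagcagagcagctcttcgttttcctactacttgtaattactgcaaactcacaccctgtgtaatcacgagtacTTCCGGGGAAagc

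Motifs were searched on both strands in all 32851 promoter windows. The STAT6 spacing was present in 6.95% of all windows, among them that of Ms4a6b, where it lay 8 to 17 bases after the start, the PU.1 core in 28.3% and the loose NF-kappaB core in 50.8%. The loose NF-kappaB core was also present in the windows of Ms4a4a, Ms4a6c and Ms4a4d. The PU.1 core was also present in that of Ms4a7, 43 to 48 bases after the start. Overlaps between motifs were allowed. The interferon-stimulated response core, GAAA, any 2 bases and GAAA, was present in 3.44% of all windows and in none of the 6 member windows. A match is a string of letters and not a measured binding site.

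Tolerant libraries held 28.3 to 37.8 M counts and those of the stimulation set 34.2 to 39.8 M. Levels are given as CPM, the counts of a gene scaled to the size of its library, with the TMM scaling of each table, so they are not set against each other across the sets. The macrophage markers Adgre1, Csf1r, Itgam, Cd68, Mertk and Fcgr1 summed to 11400 to 16980 CPM in all libraries. Single markers moved within that sum. Of the 6, 3 were called higher and 1 lower with LPS over control, where 22.8% of all tested genes were higher and 29.3% lower. Fcgr1 averaged 1788 CPM with LPS and 292.1 CPM in control cells, and Mertk 15 and 101.7 CPM. Within every tolerant group, replicates 1 and 2 differed from replicates 3 and 4. A fit with the replicate number as a block was therefore also made, and its value is given where it changes a call. The block and counts over replicate numbers match libraries of equal number. The data do not show that these belong together beyond the split of replicates 1 and 2 from replicates 3 and 4. A gene was called at a Benjamini-Hochberg adjusted p under 0.05 in edgeR's quasi-likelihood test over all genes tested, 12492 in the tolerant set and 12506 in the stimulation set. Ms4a4d passed the filter on low counts in the tolerant set only. In bulk RNA, fewer expressing cells and less RNA per cell cannot be told apart.

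The members were abundant macrophage transcripts, with Ms4a4c and Ms4a4d as exceptions. Per kilobase of the longest coding transcript, levels in control cells were 358.3 ± 1.38 CPM per kb for Ms4a7, 151.5 ± 6.45 for Ms4a6d, 146.5 ± 3.42 for Ms4a6c, 45.3 ± 5.05 for Ms4a6b and 4.53 ± 0.317 for Ms4a4c (SD, n = 2 each). Ms4a6d and Ms4a6c were neighbours in this order whose difference was no larger than their summed SDs. With LPS the order changed, with 949.8 ± 72.7 CPM per kb for Ms4a6d, 610.4 ± 2.13 for Ms4a6c, 472.7 ± 27.8 for Ms4a7, 179.1 ± 4.1 for Ms4a6b and 85.4 ± 12 for Ms4a4c (SD, n = 2 each). In tolerant cells with glutamine Ms4a7 again stood first, at 784.8 ± 52 CPM per kb, with Ms4a6d at 665.1 ± 206.7, Ms4a6c at 410.9 ± 117.8, Ms4a6b at 208.7 ± 93.4 and Ms4a4c at 30.3 ± 21.7 (SD, n = 4 each). There, neighbouring levels overlapped within their SDs except for Ms4a6b and Ms4a4c, which lay more than their summed SDs apart. With IL-4 the levels were 568.8 ± 6.29 CPM per kb for Ms4a7, 443.4 ± 21.3 for Ms4a6d, 213.9 ± 1.43 for Ms4a6c, 38.8 ± 2.11 for Ms4a6b and 3.45 ± 0.0681 for Ms4a4c (SD, n = 2 each). Tolerant AKG cells had 893.2 ± 70.5 CPM per kb for Ms4a7, 701.7 ± 69.9 for Ms4a6d, 481.4 ± 72.8 for Ms4a6c, 247.2 ± 57.2 for Ms4a6b and 77.9 ± 40.6 for Ms4a4c, and tolerant cells without glutamine had 716.2 ± 109.8, 560.8 ± 22.1, 302.1 ± 34.2, 115.2 ± 37 and 18.5 ± 9.63 CPM per kb for the same genes (SD, n = 4 each). By this length the order was Ms4a7, Ms4a6d, Ms4a6c, Ms4a6b and Ms4a4c in all groups but LPS. With IL-4, with AKG and without glutamine each neighbour lay more than the summed SDs from the next. The place of Ms4a7 depends on the length used. Its longest coding transcript has 1576 bases and the union of its exons 4453. For Ms4a6d these lengths are 1418 and 1735, and for Ms4a6c 1841 and 2050. Levels per kb of the exon union were not computed. Together the 6 analysed members took 0.226 and 0.23% of all counts with IL-4, 0.307 and 0.312% with LPS and 0.13% in both control libraries.

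LPS raised all 5 tested members, apart from Ms4a7 when libraries were scaled by their totals alone, and most of all Ms4a4c, the member that control cells expressed least among those tested. Ms4a4c had 161.7 and 132.5 CPM with LPS, against 7.41 and 8.18 CPM in control cells. The LPS libraries lay far above both controls, an 18.9-fold difference (log2 4.24, SE 0.15, adjusted p 2.64e-05 in edgeR's quasi-likelihood test). Ms4a6d, known in mouse macrophages as a partner of the complement receptor VSIG4, had 1420 and 1274 CPM with LPS, against 221.2 and 208.3 CPM in control cells. It rose 6.27-fold (log2 2.65, SE 0.11, edgeR adjusted p 3.47e-05), which made it the most abundant member per kilobase in LPS cells.

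The paired copies Ms4a6c and Ms4a6b rose by about the same factor. Ms4a6c had 1121 and 1126 CPM with LPS, against 265.3 and 274.2 CPM in control cells, a 4.17-fold rise (log2 2.06, SE 0.09, edgeR adjusted p 3.77e-05). Ms4a6b had 472.3 and 487.8 CPM with LPS, against 111.8 and 130.9 CPM in control cells, a 3.96-fold rise (log2 1.98, SE 0.12, edgeR adjusted p 8.66e-05). For both, the libraries of a group lay close together and the groups far apart. Ms4a7, a tetraspan protein typical of mature macrophages, had 714.0 and 775.9 CPM with LPS, against 563.1 and 566.2 CPM in control cells. Its rise was the smallest (log2 0.40, SE 0.09, edgeR adjusted p 0.0141), and it turned to a log2 value of -0.052 when libraries were scaled by their totals alone and lost its call without LPS replicate 2 (adjusted p 0.0845). All 5 tested members were thus called higher with LPS over control, with a median log2 fold change of 2.06, where 22.8% of all tested genes were called higher, 29.3% were called lower and the median was -0.10. Scaling by totals alone moved the median of all genes by -0.45, a shift smaller than the rises of Ms4a4c, Ms4a6b, Ms4a6c and Ms4a6d.

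Ms4a4d, a close copy of Ms4a4c, was near the limit of detection in this set. Its counts were 9 and 17 with LPS, against 1 and 2 in control cells, and 3 and 2 with IL-4. Over the summed counts of 26 and 3 the ratio of LPS to control was 12.7 (95% interval 3.9 to 65.8, counting error only), and no test across libraries was made for it.

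**Figure D1:**
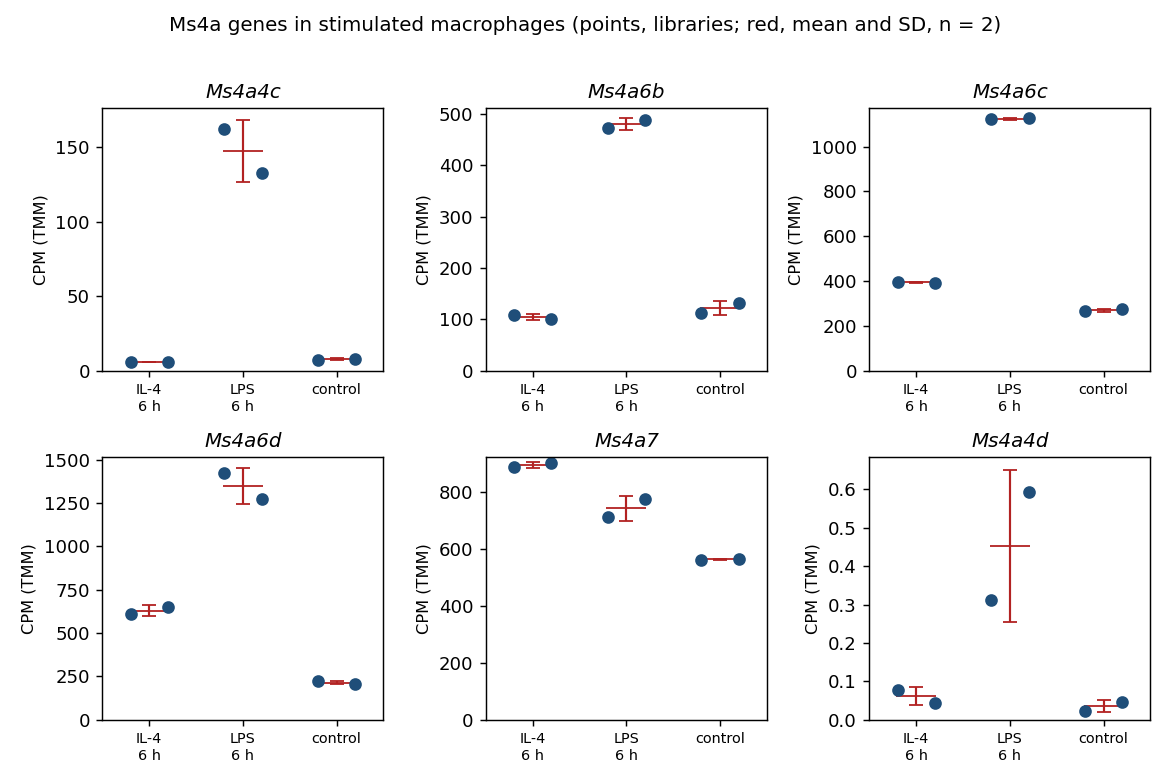
Levels of the 6 analysed members in the stimulation set, in CPM with TMM scaling, for IL-4 at 6 h, LPS at 6 h and control cells. Points are libraries and red bars are the mean with the SD (n = 2). Ms4a4c, Ms4a6b, Ms4a6c and Ms4a6d are highest with LPS, and Ms4a7 is highest with IL-4.

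IL-4 raised only some of the members that were called higher with LPS, led by Ms4a6d. Ms4a6d had 607.4 and 650.1 CPM with IL-4, against 221.2 and 208.3 CPM in control cells, a 2.93-fold rise (log2 1.55, SE 0.11, edgeR adjusted p 0.000573). Ms4a7 had 889.4 and 903.4 CPM with IL-4, against 563.1 and 566.2 CPM in control cells, and rose 1.59-fold (log2 0.67, SE 0.09, edgeR adjusted p 0.00577). Ms4a6c had 395.7 and 392 CPM with IL-4, against 265.3 and 274.2 CPM in control cells, and rose 1.46-fold (log2 0.55, SE 0.09, edgeR adjusted p 0.0091). In each of these genes, both IL-4 libraries lay above both controls.

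The other tested members had lower means with IL-4 but were not called. Ms4a4c had 5.86 and 6.03 CPM with IL-4, against 7.41 and 8.18 CPM in control cells (log2 -0.39, 95% interval -0.72 to -0.06, edgeR adjusted p 0.0998). Ms4a6b had 108.0 and 99.99 CPM with IL-4, against 111.8 and 130.9 CPM in control cells (log2 -0.22, 95% interval -0.50 to 0.06, edgeR adjusted p 0.243). So 3 of 5 members were called higher and 0 lower, with a median log2 fold change of 0.55, where 9.66% of all tested genes were called higher, 10.5% were called lower and the median was -0.04. Leaving out either IL-4 library left 1 member called, Ms4a6d, because Ms4a6c and Ms4a7 then had adjusted p between 0.0574 and 0.0941.

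Set directly against each other, the stimuli differed in 4 of the 5 tested members, all lower with IL-4. In IL-4 cells relative to LPS cells, Ms4a4c was lower by a log2 value of -4.63 (SE 0.15, edgeR adjusted p 1.27e-05), Ms4a6b by -2.21 (SE 0.12), Ms4a6c by -1.51 (SE 0.09) and Ms4a6d by -1.10 (SE 0.11, edgeR adjusted p 0.000402). Ms4a7 went the other way in its means, at 896.4 CPM with IL-4 and 744.9 CPM with LPS, and was not called (log2 0.27, 95% interval 0.04 to 0.50, edgeR adjusted p 0.0557), although library totals alone gave it 0.75 (adjusted p 0.0011). The count was 4 of 5 members lower and 0 higher, with a median log2 fold change of -1.51, where 23.4% of all tested genes were called lower, 29.7% were called higher and the median was 0.10. These comparisons share their libraries with those against the control and are not independent of them.

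**Figure D2:**
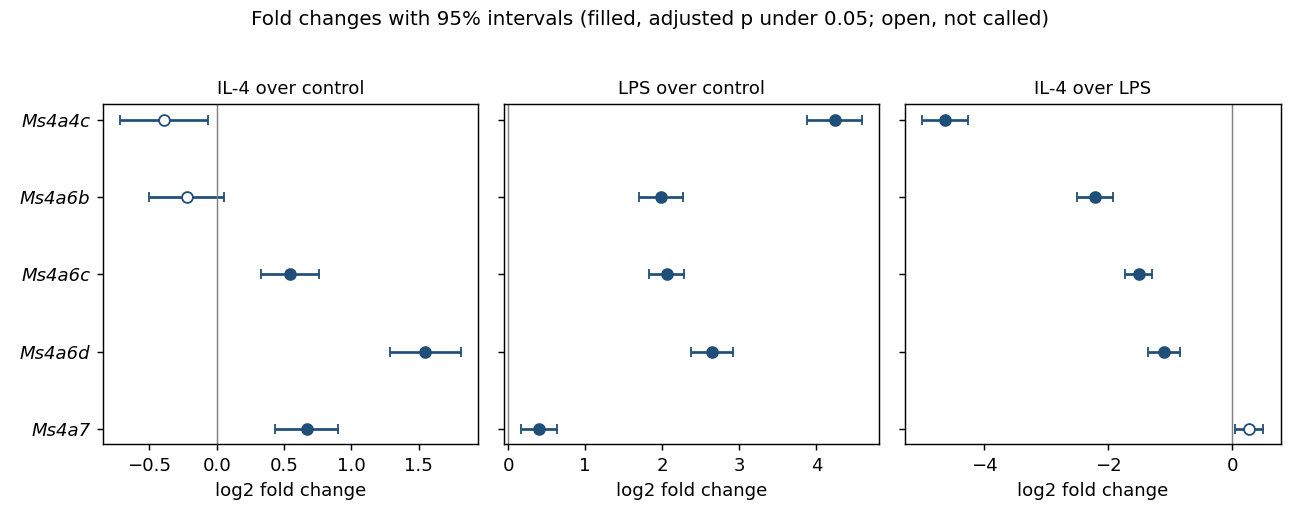
Log2 fold changes of the 5 tested members with 95% intervals for IL-4 over control cells, LPS over control cells and IL-4 over LPS. Filled points had an adjusted p under 0.05. Each panel has its own x axis, and Ms4a4c has the largest change in the panels that contain LPS, at 4.24 and -4.63.

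In tolerant macrophages, AKG given in place of glutamine went with higher Ms4a4c, Ms4a6b and Ms4a6c than no glutamine, in all 4 replicate numbers. These members were not called by edgeR without the replicate block and were called with it. Ms4a4c had 205.3, 183.1, 72.8 and 75.5 CPM with AKG and 53.2, 36.7, 16.7 and 21.1 CPM without glutamine. Every AKG library lay above every library without glutamine, and in both groups replicates 3 and 4 were the lower ones. The 4.2-fold difference had a log2 value of 2.07 (SE 0.61, edgeR adjusted p 0.136), and with the block it was 2.05 (SE 0.18, adjusted p 0.000482).

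Ms4a6b had 775.0, 814.2, 531.2 and 529.5 CPM with AKG, against 424.5, 356.2, 209.3 and 245.4 CPM without glutamine. Its groups did not overlap either (log2 1.10, SE 0.33, edgeR adjusted p 0.148; with the block 1.13, SE 0.12, adjusted p 0.000627). Ms4a6c had 962.5, 1032, 741.9 and 808.8 CPM with AKG, against 633.5, 580.3, 495.0 and 515.9 CPM without glutamine. The lowest AKG library was above the highest one without glutamine (log2 0.67, SE 0.19, edgeR adjusted p 0.125; with the block 0.66, SE 0.10, adjusted p 0.00271).

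Ms4a6d and Ms4a7 differed less. Ms4a6d had 1019, 1100, 861.2 and 1000 CPM with AKG, against 815.8, 748.5, 809.4 and 807.0 CPM without glutamine (log2 0.32, 95% interval -0.09 to 0.73, edgeR adjusted p 0.537). Ms4a7 had 1279, 1351, 1498 and 1503 CPM with AKG, against 1044, 926.9, 1291 and 1253 CPM without glutamine (log2 0.32, 95% interval 0.07 to 0.57, edgeR adjusted p 0.232; with the block 0.32, adjusted p 0.0567). AKG was the higher of the pair in all 4 replicate numbers for both genes, while the Ms4a7 groups overlapped. Ms4a4d was barely detected, with 2 to 8 counts a library with AKG and 2 to 12 without glutamine.

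Over AKG against no glutamine, edgeR called 0 of 6 members, 4 had an unadjusted p under 0.05, and DESeq2 called 3. The background was 0.64% of all genes called higher and 0.849% called lower. With the replicate block 3 of 6 members were called higher, where 8.32% of all genes were called higher and 7.03% lower. The median log2 fold change was 0.50 over the members and 0.01 over all genes. Within replicates 1 and 2 alone Ms4a4c, Ms4a6b and Ms4a6c differed by log2 values of 2.12, 1.03 and 0.72, and within replicates 3 and 4 alone by 1.98, 1.23 and 0.62. All 6 of these within-pair values were called, where 12.7% of all tested genes were called higher and 10.9% lower in replicates 1 and 2 alone, and 2.95% higher and 2.61% lower in replicates 3 and 4 alone. Ms4a6d and Ms4a7 were called in replicates 1 and 2 alone, at 0.44 and 0.42, and not in replicates 3 and 4 alone, at 0.21 and 0.24, and the differences between the pairs were not called for any member (edgeR adjusted p of the interaction 0.734 to 0.9).

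**Figure D3:**
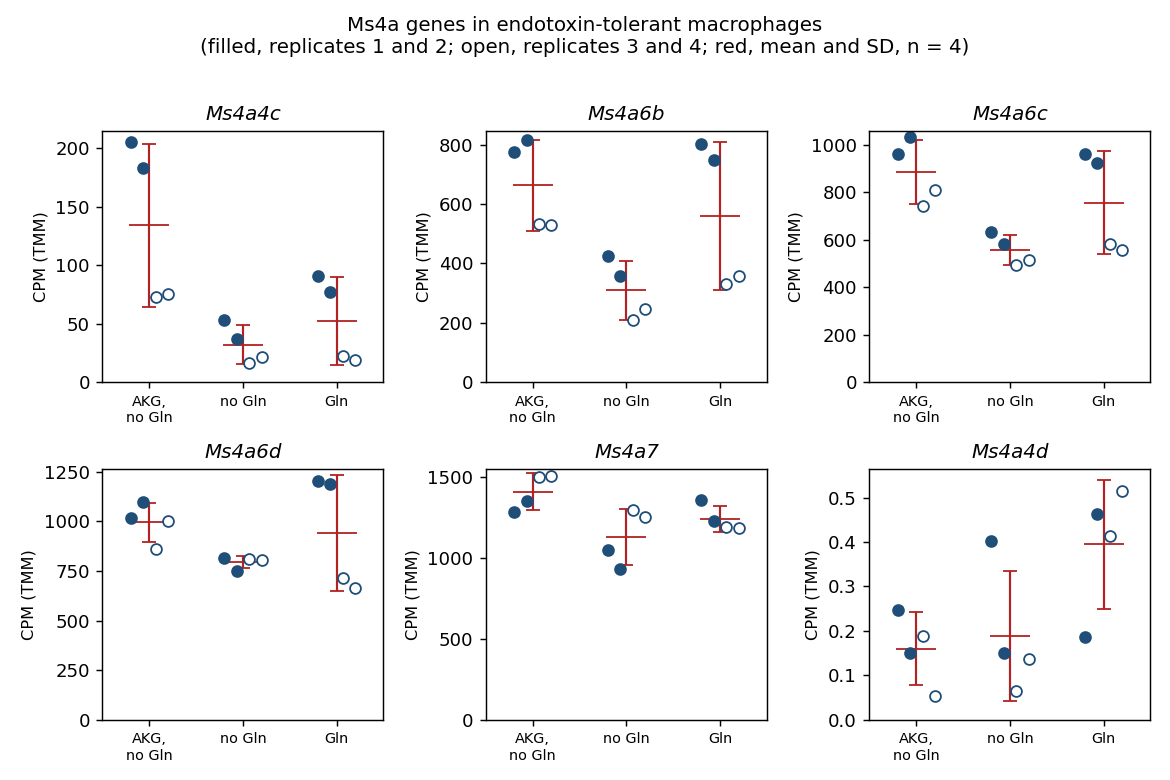
Levels of the 6 analysed members in endotoxin-tolerant macrophages, in CPM with TMM scaling, with AKG and no glutamine, with no glutamine, and with glutamine. Filled points are replicates 1 and 2, open points are replicates 3 and 4, and red bars are the mean with the SD (n = 4). For Ms4a4c, Ms4a6b and Ms4a6c the open points lie below the filled ones in every group. For Ms4a6d this is so with glutamine and with AKG, but not in the group with neither.

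Without glutamine, the same genes had lower means than with glutamine, and the groups overlapped for every member. Ms4a6b had 424.5, 356.2, 209.3 and 245.4 CPM without glutamine, against 803.0, 747.0, 329.0 and 358.5 CPM with it, lower in all 4 replicate numbers. The log2 fold change was -0.86 (SE 0.33, edgeR adjusted p 0.191), and -0.80 with the block (SE 0.12, adjusted p 0.00137). Ms4a6c had 633.5, 580.3, 495.0 and 515.9 CPM without glutamine, against 962.9, 924.3, 581.2 and 557.6 CPM with it, also lower in all 4 numbers. Its log2 fold change was -0.44 (SE 0.19, edgeR adjusted p 0.251), and -0.41 with the block (SE 0.10, adjusted p 0.0159). Ms4a4c had 53.2, 36.7, 16.7 and 21.1 CPM without glutamine, against 91.1, 77.3, 21.9 and 18.6 CPM with it. It was lower without glutamine in 3 of 4 numbers and was not called in either fit (log2 -0.71, SE 0.59, edgeR adjusted p 0.618; with the block adjusted p 0.0649).

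Ms4a6d showed different differences in the replicate pairs. It had 815.8, 748.5, 809.4 and 807.0 CPM without glutamine, against 1203, 1190, 713.7 and 666.2 CPM with it. Replicates 1 and 2 were lower without glutamine (log2 -0.62, edgeR adjusted p 0.000125 in these replicates alone), and replicates 3 and 4 were not (log2 0.25, adjusted p 0.152). The difference between the pairs was 0.84 on the log2 scale (SE 0.12, edgeR adjusted p 0.0101 for the interaction), so its pooled value of -0.25 (SE 0.19, adjusted p 0.574) averages unlike values. Ms4a7 had 1044, 926.9, 1291 and 1253 CPM without glutamine, against 1356, 1224, 1186 and 1182 CPM with it (log2 -0.13, SE 0.11, edgeR adjusted p 0.635), with values of -0.39 and 0.13 in the replicate pairs. The interaction of Ms4a7 was 0.49 (SE 0.11) and just missed the threshold (edgeR adjusted p 0.0518), as did that of Ms4a6c at 0.46 (SE 0.11, adjusted p 0.0547).

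Across this comparison edgeR called 0 of 6 members, 2 had an unadjusted p under 0.05, and DESeq2 called 0. Among all genes 2.3% were called higher and 2.4% lower, and the median log2 fold change was -0.58 over the members and -0.01 over all genes. In replicates 1 and 2 alone Ms4a4c, Ms4a6b and Ms4a6c had log2 fold changes of -0.91, -0.99 and -0.64, all called, and in replicates 3 and 4 alone of -0.08, -0.57 and -0.15, of which that of Ms4a6b was called. Among all tested genes, 13% were called higher and 15.6% lower in replicates 1 and 2 alone, and 4.41% higher and 8.79% lower in replicates 3 and 4 alone. With the block 2 of 6 members were called lower, Ms4a6b and Ms4a6c, where 8.68% of all genes were called higher and 13% lower. Stromal markers, fibroblast genes that bone marrow cultures can hold, moved with these groups. Of the 6, all of which passed the filter, 5 were called lower without glutamine (6 with the block), and 5 were called higher with AKG over no glutamine with the block. They summed to 46.3 to 191.8 CPM without glutamine, against 384 to 2025 CPM with it and 103.5 to 369.6 CPM with AKG. The part of these cells in the Ms4a differences was not tested. The macrophage markers differed little, at 12160 to 14320 CPM without glutamine and 13770 to 14750 CPM with it, and none was called without the block. With the block, the macrophage marker Fcgr1, an Fc receptor gene, was called lower without glutamine over glutamine (log2 -0.36, adjusted p 0.024), higher with AKG over no glutamine (log2 0.84, adjusted p 0.000834) and higher with AKG over glutamine (log2 0.48, adjusted p 0.0144), and Itgam was called higher with AKG over no glutamine (log2 0.29, adjusted p 0.0178).

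Against tolerant cells with glutamine, AKG cells were close for most members. Ms4a4c, at 205.3, 183.1, 72.8 and 75.5 CPM with AKG and 91.1, 77.3, 21.9 and 18.6 CPM with glutamine, was higher with AKG in all 4 replicate numbers. Its groups overlapped because of the replicate difference (log2 1.36, SE 0.59, edgeR adjusted p 0.646), and it was called with the block (log2 1.51, SE 0.18, adjusted p 0.00168). The other members had log2 fold changes with 95% intervals of 0.24 (-0.48 to 0.97) for Ms4a6b, 0.23 (-0.19 to 0.65) for Ms4a6c, 0.08 (-0.33 to 0.49) for Ms4a6d and 0.19 (-0.06 to 0.43) for Ms4a7, none of them called in either fit. Within replicates 3 and 4 alone, 5 members were called higher, Ms4a4c at 1.90, Ms4a6b at 0.66, Ms4a6c at 0.47, Ms4a6d at 0.46 and Ms4a7 at 0.37, and within replicates 1 and 2 alone only Ms4a4c was, at 1.21. Among all tested genes, 1.16% were called higher and 5.08% lower in replicates 3 and 4 alone, and 5.07% higher and 6.53% lower in replicates 1 and 2 alone. The difference between the replicate pairs was called for Ms4a6d (log2 0.61, SE 0.12, edgeR adjusted p 0.0402), which had values of -0.18 in replicates 1 and 2 and 0.46 in replicates 3 and 4. Ms4a4d had a log2 value of -1.31 (SE 0.55, edgeR adjusted p 0.606) over 22 counts with AKG and 58 with glutamine.

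By edgeR 0 of 6 members were called, 2 had an unadjusted p under 0.05, and DESeq2 called 0. Among all genes 0% were called higher and 0% lower by edgeR, while 916 genes had an unadjusted p under 0.05 and DESeq2 called 236. The median log2 fold change was 0.21 over the members and -0.002 over all genes. With the block 1 of 6 members was called higher, where 1.63% of all genes were called higher and 5.38% lower. This comparison shares its libraries with both others of the tolerant set.

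**Figure D4:**
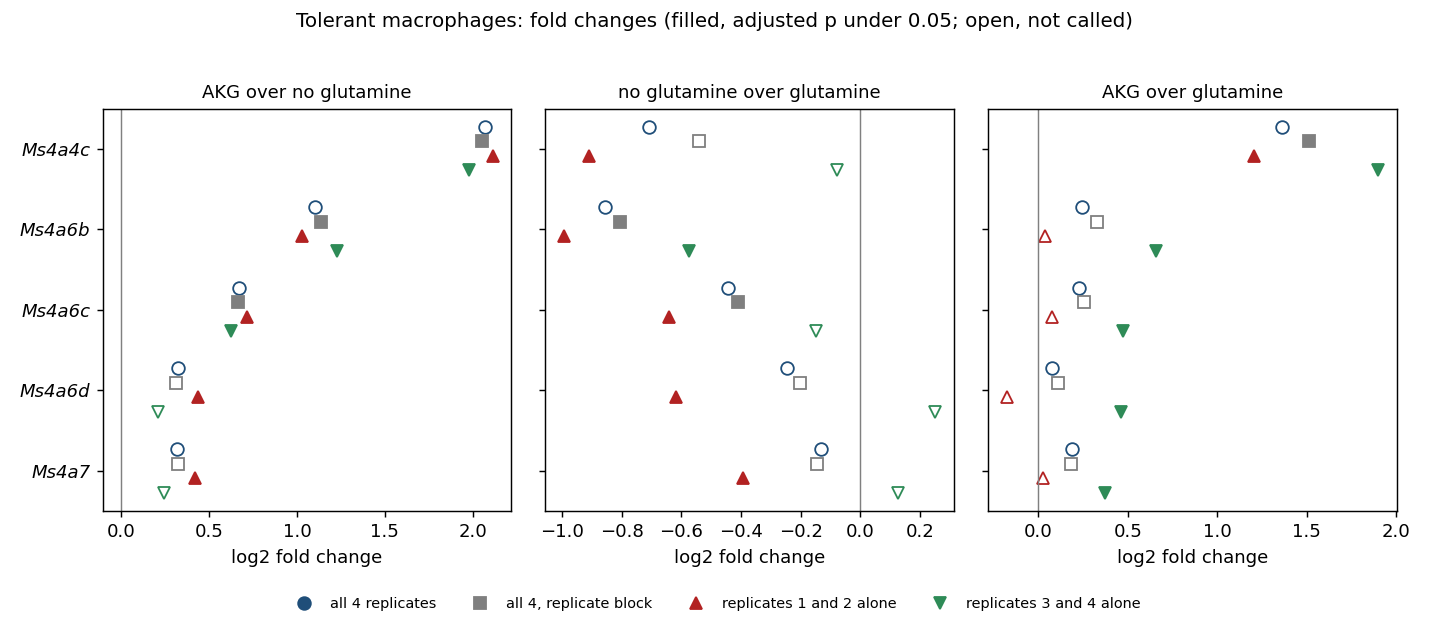
Log2 fold changes of 5 members in the tolerant comparisons, from all 4 replicates, from all 4 with the replicate block, and from each replicate pair alone. Filled symbols had an adjusted p under 0.05. In AKG over no glutamine the estimates of each gene lie close together, whereas Ms4a6d and Ms4a7 in no glutamine over glutamine lie on both sides of 0.

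Apart from treatment, many genes differed between replicates 3 and 4 and replicates 1 and 2 of the tolerant set, with 29.6% of all tested genes called higher in replicates 3 and 4 and 26.4% called lower. Of the 6 members, 4 were called lower and 0 higher. Averaged over the 3 groups, replicates 3 and 4 minus replicates 1 and 2 had a log2 difference of -1.56 for Ms4a4c (SE 0.15, edgeR adjusted p 8.87e-06), -0.85 for Ms4a6b (SE 0.09), -0.45 for Ms4a6c (SE 0.07) and -0.31 for Ms4a6d (SE 0.12, adjusted p 0.0433). Ms4a7 had a difference of 0.14 (SE 0.07, edgeR adjusted p 0.12) and Ms4a4d one of -0.24 (SE 0.42, edgeR adjusted p 0.643), and neither was called. The monocyte genes Ccr2 and Ly6c2 moved with them, at -2.33 and -2.02, as did Ms4a4b at -1.06, while the stromal genes Col1a1 and Col3a1 were higher in replicates 3 and 4, at 2.09 each. What the replicate numbers mark is not given in the labels, and the part of other cells in these differences was not tested.

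Of the relatives outside the 7 members, 15 were listed, 12 had a row and 3 passed the filter in both sets. Ms4a4b, known from T cells as a partner of the co-stimulatory receptor GITR, had 3.65 and 3.56 CPM with LPS, against 0.768 and 1.27 CPM in control cells (log2 1.82, SE 0.37, edgeR adjusted p 0.00828). Tmem176a and Tmem176b, distant tetraspan relatives of dendritic cells and macrophages, had log2 fold changes of 0.98 with LPS (SE 0.17, edgeR adjusted p 0.00384) and 1.03 (SE 0.16, adjusted p 0.00263). All 3 tested relatives were called higher with LPS over control, where 22.8% of all tested genes were, and lower with IL-4 over LPS, where 23.4% were. With IL-4 over control none was called, and in the tolerant set Ms4a4b was called higher with AKG over no glutamine with the block only (log2 1.03, adjusted p 0.00876). Ms4a4c, which shares 8.48% of its 50-base stretches with Ms4a4b and Ms4a4d, had far more reads with LPS than Ms4a4b, so reads of Ms4a4c could account for any part of the Ms4a4b counts and its values are uncertain.

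The best known relatives were at or near 0. Ms4a1 summed to 53 counts over the 12 tolerant libraries and 10 over the 6 of the stimulation set, Ms4a2 to 3 and 5, and Ms4a3, a gene of granulocyte and monocyte precursors, to 3 and 10. Ms4a8a, known from alternatively activated mouse macrophages, summed to 41 and 15 counts. It had 3 counts with IL-4, 10 with LPS and 2 in control cells. Ms4a10, Ms4a13 and Ms4a18 had 0 counts in all 18 libraries, and Ms4a9, Ms4a12 and Ms4a14 were not analysed here.

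Of the 3 tested neighbours in the cluster that carry other names, 2 were called higher with LPS, where 22.8% of all tested genes were. AW112010, a transcript of the cluster known to be induced in inflammation, had 93.0 and 70.6 CPM with LPS, against 2.86 and 2.88 CPM in control cells (log2 4.83, SE 0.22, edgeR adjusted p 4.03e-05). Gm8369, whose start region is printed above beside that of Ms4a4c, had 1.22 and 1.15 CPM with LPS, against 0.24 and 0.586 CPM in control cells (log2 1.51, SE 0.42, edgeR adjusted p 0.0257). With AKG over no glutamine both were called higher with the block only, AW112010 at log2 0.69 (adjusted p 0.0411) and Gm8369 at 0.93 (adjusted p 0.0155). The third neighbour, 4930526L06Rik, averaged 0.0349 CPM with LPS and 0.224 CPM in control cells and was not called (log2 -2.58, SE 1.49, edgeR adjusted p 0.201).

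**Figure D5:**
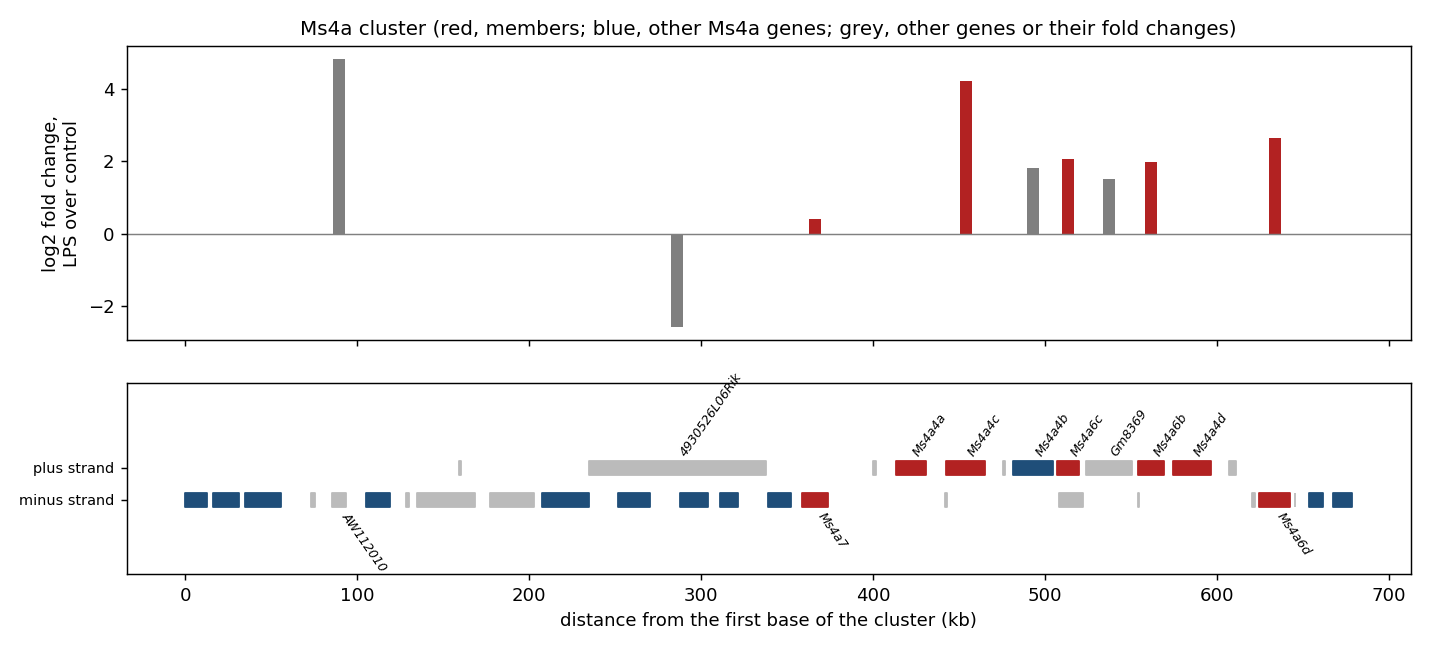
Genes of the Ms4a cluster by strand against the distance from its first base in kb, with the log2 fold change of LPS over control cells for each tested gene above. Red marks members, blue other Ms4a genes, and grey other genes. Bars in grey are tested genes that are no members, of which AW112010 has the highest value, 4.83, and 4930526L06Rik, at -2.58, was not called.

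Of the receptors and adaptors known to work with Ms4a proteins, all 7 listed were tested, and 2 were called higher and 3 lower with LPS over control, where 22.8% of all tested genes were called higher and 29.3% lower. Those called higher were the kinase Syk (log2 1.68, SE 0.12, edgeR adjusted p 0.000153) and the signalling chain Fcer1g (log2 0.98, SE 0.10). Those called lower were Clec7a, which encodes Dectin-1 (log2 -1.10, SE 0.21, edgeR adjusted p 0.00709), the lipid receptor Trem2 (log2 -1.10, SE 0.11) and the adaptor Card9 (log2 -0.42, SE 0.09). Their median was -0.15. With IL-4 over control Clec7a rose, at 837.5 CPM with IL-4 and 103.4 CPM in control cells (log2 3.02, SE 0.23, edgeR adjusted p 0.00076), and Syk fell (log2 -0.81, SE 0.12, adjusted p 0.00645). Trem2 and its adaptor Tyrobp had log2 values of -0.37 each with IL-4 and missed the threshold (edgeR adjusted p 0.0684 and 0.0668). In the tolerant set no partner was called without the block. With it, Syk was called higher without glutamine over glutamine (log2 0.35, adjusted p 0.00929) and lower with AKG over no glutamine (log2 -0.27, adjusted p 0.0425). Tnfrsf18, which encodes GITR, was called lower without glutamine over glutamine (log2 -0.94, adjusted p 0.0186) and higher with AKG over no glutamine (log2 0.89, adjusted p 0.0339). It was below 1 CPM in its mean in all 6 groups.

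The genes whose fold changes were nearest to those of Ms4a4c are known as interferon-induced. By likeness over 4 comparisons (no glutamine over glutamine, AKG over no glutamine, IL-4 over control, LPS over control), the genes nearest to Ms4a4c among 9326 were Ifi44 (root mean square difference 0.31 in log2 units), with log2 fold changes of -0.90, 1.64, -0.79 and 4.32, and Iigp1 (0.40). Iigp1 encodes an immunity-related GTPase. The nearest to Ms4a6b were Il10 (0.18) and Ccr3 (0.23), to Ms4a6c Mid1 (0.13) and Lacc1 (0.20), to Ms4a6d Psmb10 (0.21) and Csf3r (0.22), and to Ms4a7 Ints9 (0.087) and Ccdc115 (0.12). Of the members, Ms4a6c was nearest to Ms4a6b (0.49) and to Ms4a6d (0.62), and Ms4a7 lay far from Ms4a4c (2.19). Small differences are common for genes that change little, as Ms4a7 does.

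Interferon-response genes as a list had 18 members, all tested. With LPS over control all 18 were called higher, where 22.8% of all tested genes were, with a median log2 value of 3.99. Among them were Ifit3 (3.60, SE 0.11) and Zbp1 (4.37, SE 0.14). With IL-4 over control 11 were lower and 1 higher, with a median of -0.79, where 10.5% of all genes were lower and 9.66% higher. With AKG over no glutamine 7 were higher and 0 lower without the block and 17 were higher with it, with a median of 0.94. Among all genes, 0.64% were called higher and 0.849% lower without the block, and 8.32% higher with it. The interferon-response genes called included Ifit3 (1.33, SE 0.22, edgeR adjusted p 0.0203) and Oasl2 (0.65, SE 0.11, adjusted p 0.024). Without glutamine over glutamine none was called in either fit, with a median of -0.22. With AKG over glutamine none was called without the block, as among all genes. With the block 14 were higher, where 1.63% of all genes were. Genes of the IL-4 response gave 14 of 15 called higher with IL-4 over control, where 9.66% of all genes were, with a median of 5.32. They were led by Pdcd1lg2 (8.59, SE 0.20) and Arg1 (8.67, SE 0.23). With LPS over control 8 were higher and 1 lower, where 22.8% of all genes were higher and 29.3% lower. In the tolerant set none of the 11 tested was called without the block. With it, 3 were lower without glutamine over glutamine, where 13% of all genes were. With AKG over no glutamine 4 were higher with the block, where 8.32% of all genes were. With AKG over glutamine 1, Arg1, was higher with the block, where 1.63% of all genes were.

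Markers of other cells were low but not absent. B cell markers summed to 13.8 to 32.5 CPM in the tolerant set and 2.55 to 10.3 CPM in the stimulation set, T and NK cell markers to 1.8 to 6.82 and 0.762 to 7.69 CPM, and mast cell and basophil markers to 0.298 to 5.27 and 0.661 to 1.1 CPM. Granulocyte precursor markers did not exceed 0.654 CPM. The T and NK list moved with LPS, at 6.08 to 7.69 CPM with LPS and 1.08 to 1.85 CPM in control cells, through Lck (log2 3.12, SE 0.40) and Ms4a4b, while Cd3g was at 0 in both groups. The monocyte marker Ly6c2 averaged 0.906 CPM with LPS and 0.0832 CPM in control cells and was called higher with LPS (log2 3.40, SE 0.39, edgeR adjusted p 0.000871), and Ccr2 averaged 14.3 CPM with LPS and 27.2 CPM in control cells and was not called (log2 -0.92, SE 0.42, edgeR adjusted p 0.128). In the tolerant set Ccr2 averaged 28.8 CPM with AKG, 13.3 CPM without glutamine and 24.9 CPM with glutamine. With the block it was called lower without glutamine over glutamine (log2 -1.04, edgeR adjusted p 0.0118) and higher with AKG over no glutamine (log2 1.34, edgeR adjusted p 0.00589). The B cell markers Cd22 and Cd79b were called lower with LPS over control, and Lck was called higher without glutamine over glutamine (log2 1.96, edgeR adjusted p 0.0136). The part of these cells in the Ms4a results was not tested.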

How the data were processed

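Total RNA was sequenced from stranded libraries, per the labels' protocols. The deposited values are raw read counts per gene. The submitters' processing notes name STAR, HTSeq and the build mm10, and no source used here gives a version or the role of each tool. Members, gene lists, tests and alternatives were chosen with earlier results of these data known. The tolerant and the stimulation table were fitted separately. Group means were estimated in edgeR 4.0.16 under R 4.3.3 (with limma 3.58.1), after filterByExpr and TMM scaling, and tested by the robust quasi-likelihood F test. P-values were Benjamini-Hochberg adjusted over all genes tested, with a threshold of 0.05. Standard errors were taken from the fold change and the F value, and intervals are 95%. The fit was also run on simulated counts with the same dispersion for all genes and no difference between replicates. The tolerant set has such a difference, so that run does not test the fit there. DESeq2 1.42.0 was an alternative, with RLE factors, no filter, library totals alone, the replicate block, each replicate pair alone and each library left out.

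To see whether replicate numbers pair libraries, each library's deviation from its group mean was correlated with those of other groups. The correlations were 0.429 to 0.848 for the 12 tolerant pairs of equal number and -0.868 to 0.857 for 36 pairs of unlike number. Pairs of unlike number were positive within replicates 1 and 2 and within replicates 3 and 4, and negative between these sets. The correlations thus set replicates 1 and 2 apart from replicates 3 and 4. They do not show that libraries of equal number belong together within these sets. The numbers were taken as pairs for the block, which is an assumption. In the stimulation set same-number pairs ran from -0.781 to 0.665. Replicates were not copies of each other, since the chi-square statistic over its degrees of freedom lay between 7.68 and 173 in 21 pairs.

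Genes were named by rule: all members, every tested relative and receptor partner, for other lists counts with the leading genes by p, and for each member the 2 genes of least root mean square difference among genes whose log2 CPM averaged 2 or more in the tolerant table and in the stimulation table. Cd3g and the tolerant values of Fcgr1 and Itgam were named after their values were seen. Annotation was GENCODE vM21 and promoters were from RefSeq. Alignments used Biopython 1.88, and figures matplotlib 3.10.9 in Python 3.11.15. A few listed items are not reported here.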

Additional observations from a re-analysis of the deposited data

Results flagged for a closer look

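Of 18 sets of 4 tolerant libraries (6 members in 3 groups), 1 had a library far from the others: Ms4a6d without glutamine, where replicate 2 had 748.5 CPM and the other replicates had 807.0 to 815.8 CPM. Chance flags about 1 in 20 such sets.

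Ms4a6d differed between the replicate pairs of the tolerant set. Its log2 fold change of no glutamine over glutamine was larger by 0.84 in replicates 3 and 4 than in replicates 1 and 2 (SE 0.12, edgeR adjusted p 0.0101), and that of AKG over glutamine was larger by 0.61 (SE 0.12, edgeR adjusted p 0.0402). Both differences share the glutamine libraries, in which Ms4a6d had 1203 and 1190 CPM in replicates 1 and 2 and 713.7 and 666.2 CPM in replicates 3 and 4. The interaction was added after the data were seen.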

How the results depend on the processing

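Of 420 values of single members under the alternatives, 375 kept their direction and their side of the threshold, 31 passed it in addition, 5 no longer passed it and 9 changed sign. The calls of Ms4a4c, Ms4a6b, Ms4a6c and Ms4a6d with LPS over control and with IL-4 over LPS, and of Ms4a6d with IL-4 over control, held under every alternative run. The scaling by library totals alone and the crossed block were chosen after seeing the data. Unless stated, the cause was not tested.

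In the tolerant set the number of calls depended on the fit. With the replicate block 2707 genes and 2 members were called without glutamine over glutamine, 1917 and 3 with AKG over no glutamine, and 876 and 1 with AKG over glutamine. DESeq2 called 1283, 663 (3 members) and 236 genes in the same order. Replicates 1 and 2 alone gave 3526 genes with 5 members, 2908 with 5, and 1433 with 1, and replicates 3 and 4 alone gave 1670 with 1, 703 with 3, and 790 with 5. Without a filter AKG over no glutamine had 123 calls, and with library totals alone AKG over glutamine had 4. Leaving out 1 library gave 229 to 468 calls without glutamine over glutamine and 28 to 116 with AKG over no glutamine, with 0 members called. In the stimulation set, leaving out 1 library gave 944 to 2751 calls and 1 to 3 members with IL-4 over control, and 4574 to 6567 calls and 4 to 5 members with LPS over control. The replicate block changed no member's call there. With the IL-4 numbers crossed, the block gave 3965 calls and 3 members for IL-4 over control, 7964 and 5 for LPS over control and 8023 and 5 for IL-4 over LPS, where Ms4a7 was then called. The crossing matches libraries whose deviations went together in these same data. Added calls, that of Ms4a7 among them, can follow from that choice and are no further support.

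Signs changed for values that were not called, apart from Ms4a7 with LPS over control, which was -0.052 with library totals alone. Ms4a6d with AKG over glutamine was -0.18 in replicates 1 and 2, and leaving out 1 library gave -0.054 (without replicate 4 of the glutamine group) to 0.22, with -0.032 without replicate 3 of that group. Without glutamine over glutamine, Ms4a6d was 0.25 and Ms4a7 0.13 in replicates 3 and 4. Ms4a4d with AKG over no glutamine was 0.26 in replicates 3 and 4, and leaving out 1 library gave -0.52 to 0.42, above 0 without replicate 1 of the group lacking glutamine (0.42) and without AKG replicate 4 (0.058). Scaling by library totals alone moved the median of all genes by -0.45 with LPS over control (20.1% of calls higher, against 43.8%) and by 0.48 with IL-4 over LPS (79.5%, against 55.9%), and moved the share of higher calls with AKG over no glutamine to 34.1%, against 43%.

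With 2 libraries a group the stimulation fit has 3 residual degrees of freedom per gene. The tests therefore lean on a spread that edgeR moderates with that of the other genes. Ms4a4d had at most 20 counts in a library, so its values are imprecise.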
